A study of Rattus norvegicus with 8 samples.

Results

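Immediate early genes are the genes that a cell transcribes within minutes of a stimulus, before any new protein is needed. Here 10 of them, Fos, Fosb, Jun, Junb, Egr1, Atf3, Nr4a1, Myc, Btg2 and Dusp1, were followed in RNA from the sinoatrial node, where the heartbeat starts. They were taken by their Ensembl rat gene identifiers. All 10 were found among the 32285 identifiers of the count table. All 8 libraries came from Dahl salt-sensitive rats (SS/JrHsdMcwiCrl), an inbred strain whose blood pressure climbs on salty chow. For 11 weeks the Control animals (4 libraries) had a normal diet of 0.4% NaCl, and the HFpEF animals (4 libraries) one of 8% NaCl, as a model of heart failure in which the ejection fraction is preserved. The sources used here state neither age nor sex, nor that every library is a separate animal, so the p-values speak only of the variation among libraries, which may be technical. No group had high salt without the heart failure model, and salt, pressure and heart failure cannot be told apart. The tissue was excised, frozen in liquid nitrogen and later extracted, and the time from excision to freezing is not stated. The comparison was chosen as a check on tissue handling, through both the difference between the diets and the spread within them. Without that time, handling and the state of the animals cannot be told apart, and no cause of a high level was tested.

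In heart muscle, fibroblasts and vessel cells these genes are switched on by calcium entry, stretch, hormones, growth factors and loss of blood flow, through kinases that act on factors already bound to the DNA. The factors best known for this are the serum response factor, which binds the CArG box, and CREB, which binds the cAMP response element (CRE). The messages are short-lived, so their level can change much within the minutes that a tissue is handled. Fos and Jun proteins pair to form the factor AP-1, Egr1, Atf3, Nr4a1 and Myc encode other transcription factors, and Dusp1 and Btg2 encode brakes on signalling and on growth.

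The promoters of 3 members are shown as examples of windows that hold CRE letters. Whether these letters bear on the levels in the libraries was not tested. The RefSeq promoter table of the GRCr8 build had an entry for 6 of the 10 members (Fosb, Junb, Egr1, Nr4a1, Btg2 and Dusp1), while the counts were made on rn6. Each line gives the 250 bases before the transcript start that the table uses, 5′ to 3′ on the gene's strand, with capitals on the CRE core TGACG or its reverse complement CGTCA. The windows are chr7:134259888-134260137 (plus strand) for Nr4a1, chr10:17184603-17184852 (plus strand) for Dusp1 and chr13:48087691-48087940 (minus strand) for Btg2.
Nr4a1: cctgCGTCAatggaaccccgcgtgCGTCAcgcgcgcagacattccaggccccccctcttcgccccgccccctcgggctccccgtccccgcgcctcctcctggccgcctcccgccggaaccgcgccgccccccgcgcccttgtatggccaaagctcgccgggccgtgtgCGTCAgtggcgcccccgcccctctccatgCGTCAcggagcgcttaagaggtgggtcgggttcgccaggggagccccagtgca
Dusp1: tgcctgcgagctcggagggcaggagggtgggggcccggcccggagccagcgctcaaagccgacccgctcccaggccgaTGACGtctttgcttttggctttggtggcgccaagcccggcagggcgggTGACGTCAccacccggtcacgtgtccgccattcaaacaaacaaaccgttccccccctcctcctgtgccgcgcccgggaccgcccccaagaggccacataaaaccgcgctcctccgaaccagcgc
Btg2: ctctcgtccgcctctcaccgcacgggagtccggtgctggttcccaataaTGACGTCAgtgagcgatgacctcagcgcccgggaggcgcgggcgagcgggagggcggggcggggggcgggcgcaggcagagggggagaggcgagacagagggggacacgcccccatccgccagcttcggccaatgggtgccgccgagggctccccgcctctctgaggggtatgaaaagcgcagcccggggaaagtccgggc
The core was found on either strand in 5 of the 6 windows (Btg2, Dusp1, Egr1, Junb and Nr4a1) and in 18.2% of all 33469 windows of that length. Nr4a1 had 4 matches. The whole palindrome TGACGTCA, in which a pair of cores overlap, was in the Dusp1 window at -124 to -117 and the Btg2 window at -201 to -194, counted from the start, and in 1.59% of all windows. The CArG box was in the Egr1 window, with 2 matches, and in 501 of the 33469 windows. The AP-1 letters TGANTCA were in 0 of the 6 windows and in 6.34% of all. These are matches of letters in a window, not shown to be bound sites.

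Total expected counts ran from 31774820 to 38889395 per library. The lowest count of any member in any library was 34 (Fosb), and the counts of the other 9 ran from 93 upward. All 10 members passed edgeR's filter on low counts, as did 16313 genes in all. Levels are given as normalised CPM, counts scaled to a fixed library size (CPM) after TMM scaling of the library totals, and are not divided by gene length, so they are compared between libraries and not between genes. In 9 members every expected count was whole, and only Atf3 had non-whole counts, in which RSEM had shared out reads between genes. Markers of the node and of other cell types were not analysed here, because the table gives no gene names and only the 10 members could be named. In bulk tissue fewer cells of a type and less RNA per cell cannot be told apart.

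None of the 10 genes was called between the diets (0 of 10 at an edgeR adjusted p under 0.05, where 1.94% of all tested genes were called). By fitted fold change 8 members lay lower in HFpEF and 2, Junb and Myc, higher, with a median log2 fold change of -0.20 against -0.0041 over all genes. By group medians of CPM the tally was the other way, with 7 members higher in HFpEF and 3, Fosb, Nr4a1 and Dusp1, lower. The Fos median was 5.63 CPM for Control and 7.84 for HFpEF, and that of Egr1 15.9 and 19.5 CPM. Some gaps were small, as for Btg2 (51.3 and 52.3 CPM) and Jun (184 and 201 CPM). The tally of medians was not set against that of all genes. Myc, a driver of cell growth, was the 1 member with an unadjusted edgeR p under 0.05, a level that 19.6% of tested genes reached, and the 1 member of 10 whose groups did not overlap, where 12.5% of all tested genes had groups that did not overlap in either direction. That share is near the members' own. In the other 9 the groups overlapped, and the fitted difference between the diets was smaller than the SD of log2 CPM within Control. Without Control replicate 3 the median of that SD over the 10 members went from 0.75 to 0.35. For Fosb the difference (-0.54) was larger in size than the SD within HFpEF (0.16). Control replicate 3 and HFpEF replicate 2 held the high values. DESeq2 called 1 member, Myc, where it called 7.65% of all genes, and limma-voom called 0, with 1.37% of all genes called.

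**Figure D1:**
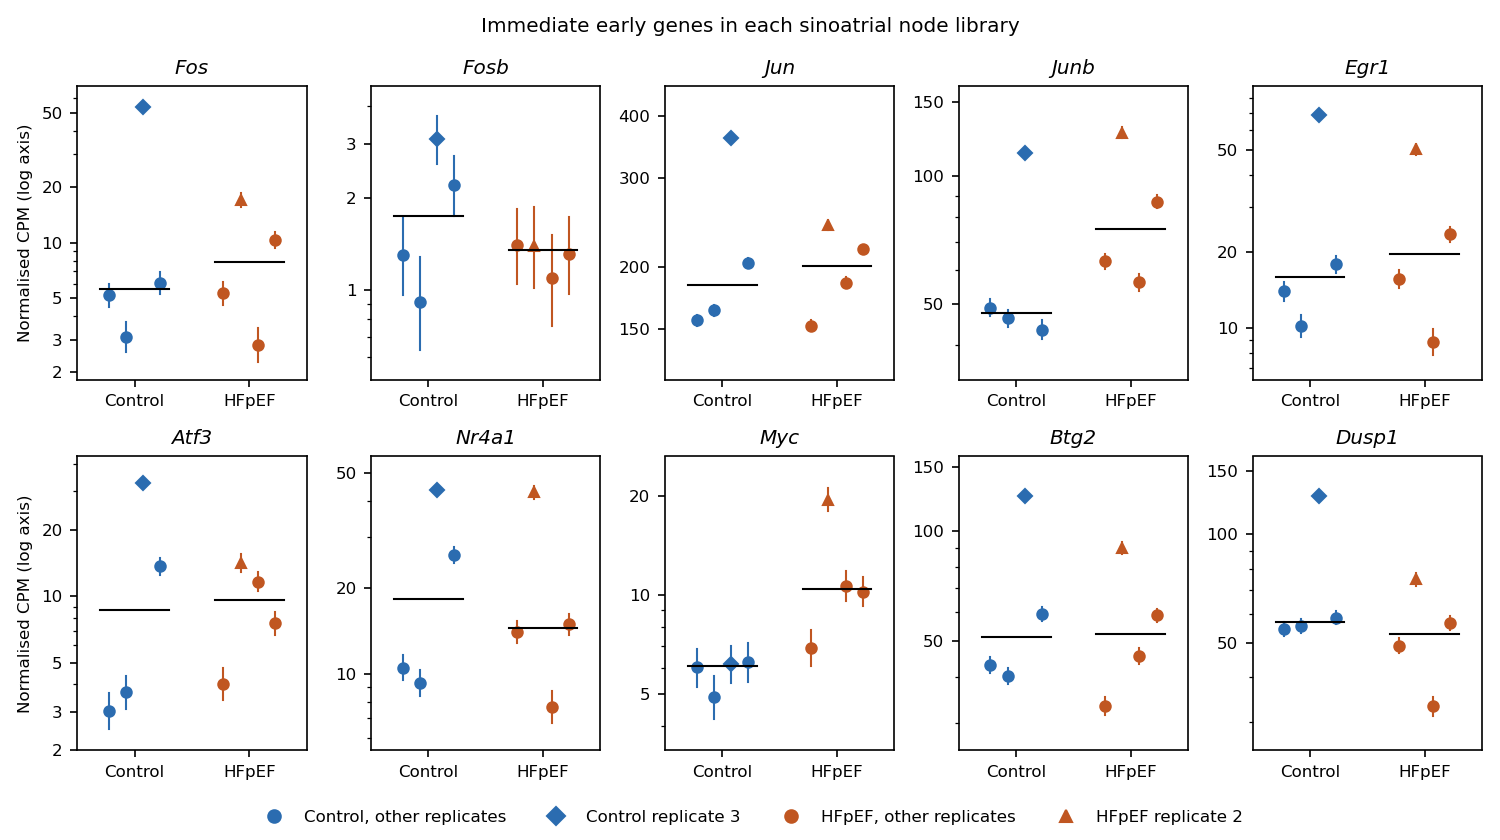
Normalised CPM (log axis) of each gene in the 4 Control and 4 HFpEF libraries, in replicate order from left to right. Black bars are group medians and thin vertical lines the exact Poisson 95% intervals of the counts. Control replicate 3 (diamond) was the highest Control library in 9 of 10 genes and HFpEF replicate 2 (triangle) the highest HFpEF library in 9 of 10.

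Of the AP-1 subunits, Fos (ENSRNOG00000008015) had the widest range. Its level was 5.20, 3.12, 53.5 and 6.07 CPM in Control replicates 1 to 4 and 5.35, 16.9, 2.81 and 10.3 CPM in HFpEF replicates 1 to 4. Control replicate 3 stood 8.82-fold over the next highest Control library, and the other 3 Control libraries lay inside the range of HFpEF. The log2 fold change (HFpEF minus Control) was -0.94, with an approximate 95% interval from -3.02 to 1.13 (edgeR adjusted p = 0.611). That interval holds both a large fall and a rise of more than 1 on the log2 scale.

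Fosb (ENSRNOG00000046667), a relative of Fos that also needs a Jun partner, was the member with the fewest counts. It stood at 1.30, 0.913, 3.12 and 2.20 CPM in Control and at 1.40, 1.39, 1.09 and 1.31 CPM in HFpEF. The counting intervals of Control replicate 2 (0.632 to 1.28) and Control replicate 3 (2.58 to 3.73) did not meet, so that gap was larger than counting error. All 4 HFpEF libraries fell within the Control range, and Fosb alone among the members was not highest in HFpEF replicate 2 within its group. That rank was within counting error, since the intervals of HFpEF replicate 1 (1.04 to 1.84) and HFpEF replicate 2 (1.01 to 1.87) overlapped almost wholly. For Fosb the log2 fold change was -0.54 (interval -1.33 to 0.26, edgeR adjusted p = 0.441).

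Jun (ENSRNOG00000026293), which can pair with itself as well as with Fos proteins, stood at 156, 164, 361 and 203 CPM in Control and at 153, 243, 186 and 217 CPM in HFpEF. Apart from Control replicate 3 the Control and HFpEF libraries interleaved. Jun had a log2 fold change of -0.15 (interval -0.75 to 0.46, edgeR adjusted p = 0.805), one of the narrower intervals among the members.

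Junb (ENSRNOG00000042838), a Jun relative that also forms AP-1, had 48.9, 46.2, 114 and 43.4 CPM in Control and 62.9, 127, 56.2 and 87.0 CPM in HFpEF. Every HFpEF library lay above Control replicates 1, 2 and 4, and Control replicate 3 lay above all but HFpEF replicate 2. The log2 fold change was 0.40 (interval -0.42 to 1.22, edgeR adjusted p = 0.581). Without Control replicate 3 it was 0.85 with an unadjusted edgeR p of 0.0124, in a fit where 15.3% of genes had one under 0.05. The adjusted edgeR p of 0.207 missed the threshold. Control replicate 3 was singled out for its high member values, that of Junb included, so this fit is a description and no test.

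Egr1 (ENSRNOG00000019422), a zinc finger factor induced by growth factors and stretch, had 13.9, 10.2, 68.9 and 17.8 CPM in Control and 15.6, 50.6, 8.81 and 23.4 CPM in HFpEF. Control replicate 3 stood 3.87-fold over the next Control library and HFpEF replicate 2 stood 2.16-fold over the next HFpEF library. The group means were 27.7 ± 27.6 CPM for Control and 24.6 ± 18.3 CPM for HFpEF (SD, n = 4 each). The SD was of the size of the mean in Control and smaller than the mean in HFpEF. Egr1 had a log2 fold change of -0.18 (interval -1.72 to 1.37, edgeR adjusted p = 0.917).

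Nr4a1 (ENSRNOG00000007607), an orphan nuclear receptor also called Nur77, had 10.5, 9.32, 43.6 and 26.0 CPM in Control and 14.0, 42.9, 7.69 and 14.9 CPM in HFpEF. The highest library of each diet reached almost the same level. The diets differed by -0.17 on the log2 scale (interval -1.56 to 1.21, edgeR adjusted p = 0.907).

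Atf3 (ENSRNOG00000003745), a stress-induced member of the ATF and CREB family that mostly represses its targets, had 3.03, 3.68, 32.7 and 13.8 CPM in Control and 4.0, 14.3, 11.7 and 7.54 CPM in HFpEF. Control replicates 1 and 2 were below every HFpEF library and Control replicate 3 above all of them. In HFpEF replicate 3 Atf3 lay above its own median over the 8 libraries, by 0.31 on the log2 scale. Fos, Egr1, Nr4a1 and Dusp1 had their lowest level of all 8 libraries there. Atf3 had a log2 fold change of -0.51 (interval -2.14 to 1.12, edgeR adjusted p = 0.747).

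Both genes for brakes followed the same libraries. Dusp1 (ENSRNOG00000003977), a phosphatase that switches off the MAP kinases, had 54.5, 55.6, 128 and 58.7 CPM in Control and 49.0, 74.8, 33.3 and 56.7 CPM in HFpEF. Control replicates 1, 2 and 4 were close to each other, and Control replicate 3 stood 2.18-fold over the highest of them. The log2 fold change was -0.47 (interval -1.21 to 0.27, edgeR adjusted p = 0.466). Btg2 (ENSRNOG00000003300), which slows cell division and promotes removal of poly(A) tails, had 43.1, 40.2, 125 and 59.4 CPM in Control and 33.3, 90.1, 45.6 and 59.0 CPM in HFpEF. Its groups overlapped over most of their range, with a log2 fold change of -0.23 (interval -1.15 to 0.69, edgeR adjusted p = 0.802).

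Myc (ENSRNOG00000004500), a factor that drives growth and ribosome production, had a different pattern from the other members. It stood at 6.01, 4.89, 6.16 and 6.24 CPM in Control and at 6.91, 19.4, 10.7 and 10.2 CPM in HFpEF, so that every HFpEF library lay above every Control library, as in 6.74% of all tested genes. HFpEF replicate 1 exceeded the highest Control library by little, and their counting intervals (6.08 to 7.82 and 5.45 to 7.11) overlapped. The mean was 5.82 ± 0.630 CPM for Control and 11.8 ± 5.36 CPM for HFpEF (SD, n = 4 each). The log2 fold change was 1.02 with a standard error of 0.28 (interval 0.39 to 1.64), or 2.02-fold, with an unadjusted edgeR p of 0.00518 and an adjusted p of 0.0954 over all genes. It therefore missed the threshold of 0.05, and it passed one of 0.1, as 5.78% of genes did. Over 17 other settings its adjusted p ran from 0.00699 (DESeq2, which called 7.65% of genes) to 0.219 (edgeR without Control replicate 1). It was also called without HFpEF replicate 1 (edgeR adjusted p = 0.0444, where 2.02% of genes were called). Without HFpEF replicate 2 the log2 fold change was 0.67 (edgeR adjusted p = 0.0999). Control replicate 3, high for the other members, was not high for Myc.

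The libraries with high values were the same for most members. Control replicate 3 had the highest level of all 8 libraries in 8 of 10 members and HFpEF replicate 2 in the other 2, Junb and Myc. HFpEF replicate 2 was second in 7. These libraries were each the highest of their own diet for 8 of the 10 members, all but Fosb and Myc, against 6.45% of all tested genes. Both were singled out after their high member values were seen, so the shares are a description and no test. Measured from each gene's own median over the 8 libraries, the mean deviation of the 10 members on the log2 scale was 1.40 in Control replicate 3 and 0.95 in HFpEF replicate 2. It was 0.21 in Control replicate 4 and 0.26 in HFpEF replicate 4. In the remaining libraries it was -0.35 and -0.55 (Control replicates 1 and 2) and -0.24 and -0.32 (HFpEF replicates 1 and 3). Both diets thus held libraries with high and with low levels.

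**Figure D2:**
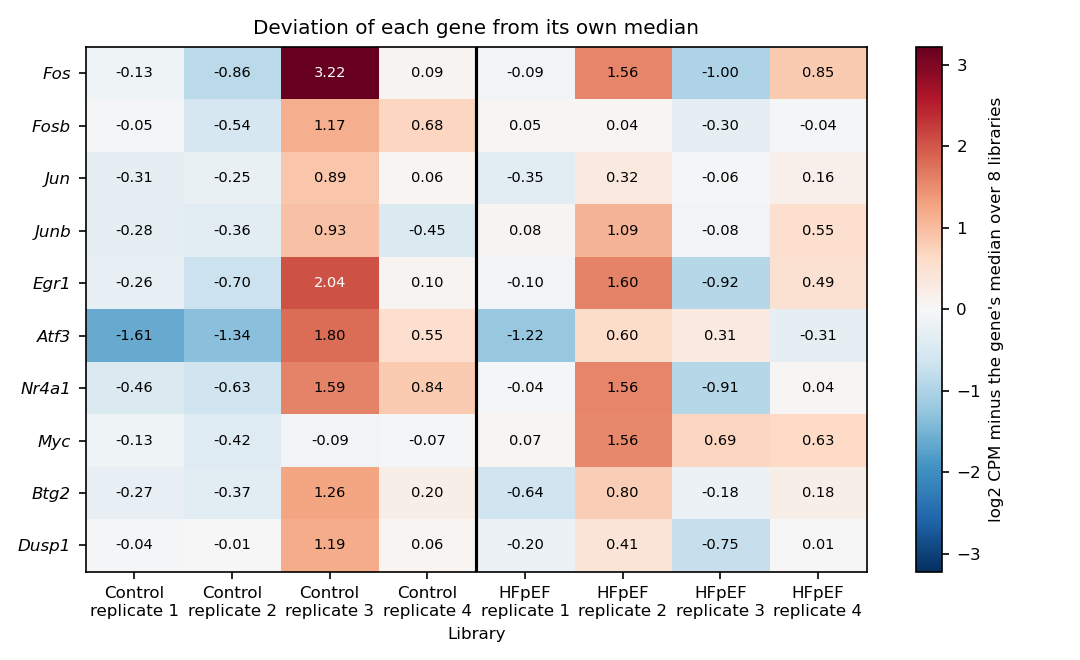
Log2 CPM of each gene (row) in each library (column) minus that gene's median over the 8 libraries, red for above and blue for below. The column of Control replicate 3 is red in 9 of 10 rows, with Fos at 3.22 and Egr1 at 2.04, and that of HFpEF replicate 2 lies above the median in 10 of 10 rows.

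A rise of this size in Control replicate 3 was rare among all genes. Control replicate 3 was singled out after its high member values were seen, so the shares are a description and no test. It stood at least 2-fold over every other Control library in 6 of the 10 members (Fos, Junb, Egr1, Atf3, Btg2 and Dusp1) and in 31 of the 16313 tested genes (0.190%), so these 6 are among those 31. Control replicates 1, 2 and 4 had 25, 35 and 55 such genes, so the number for Control replicate 3 lay within their range. HFpEF replicate 2 stood at least 2-fold over every other HFpEF library in 2 members, Egr1 and Nr4a1, and in 195 tested genes (1.2%). The same measure gave 31, 60 and 66 genes for HFpEF replicates 1, 3 and 4, so HFpEF replicate 2 stood out over all genes too. Over all genes Control replicate 3 was the highest Control library in 22.9% and the lowest in 23.0%, close to an even share among 4 libraries. It had the most counts of the 8 libraries (38889395) and HFpEF replicate 2 the fewest (31774820), and the part of depth in the result was not tested. The 10 most counted genes took 28.8% and 28.7% of the counts in these libraries, inside the range of the other 6 (27.0% to 30.5%).

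The spread within groups was wide for these genes. The SD of log2 CPM in Control ran from 0.55 (Jun) to 1.81 (Fos) in the 9 members other than Myc, which had 0.16, while the median over all tested genes was 0.13. Those 9 were over the 90th percentile of SD in Control, from the 94.2nd percentile for Jun to the 99.5th for Fos. In HFpEF the SD ran from 0.16 (Fosb) to 1.12 (Fos), against a median of 0.18 over all genes, and 6 members were over the 90th percentile (Fos, Egr1, Atf3, Nr4a1, Myc and Btg2). The SD was higher in Control than in HFpEF for 9 of 10 members, all but Myc, against 33.0% of tested genes. That order rested on 1 library, Control replicate 3, which was singled out for its high member values. Without Control replicate 3 it held for 2 of 10, the number over the 90th percentile in Control went from 9 to 4, and the median SD of the members in Control went from 0.75 to 0.35, against 0.61 in HFpEF. Without HFpEF replicate 2 the median in HFpEF was 0.40.

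**Figure D3:**
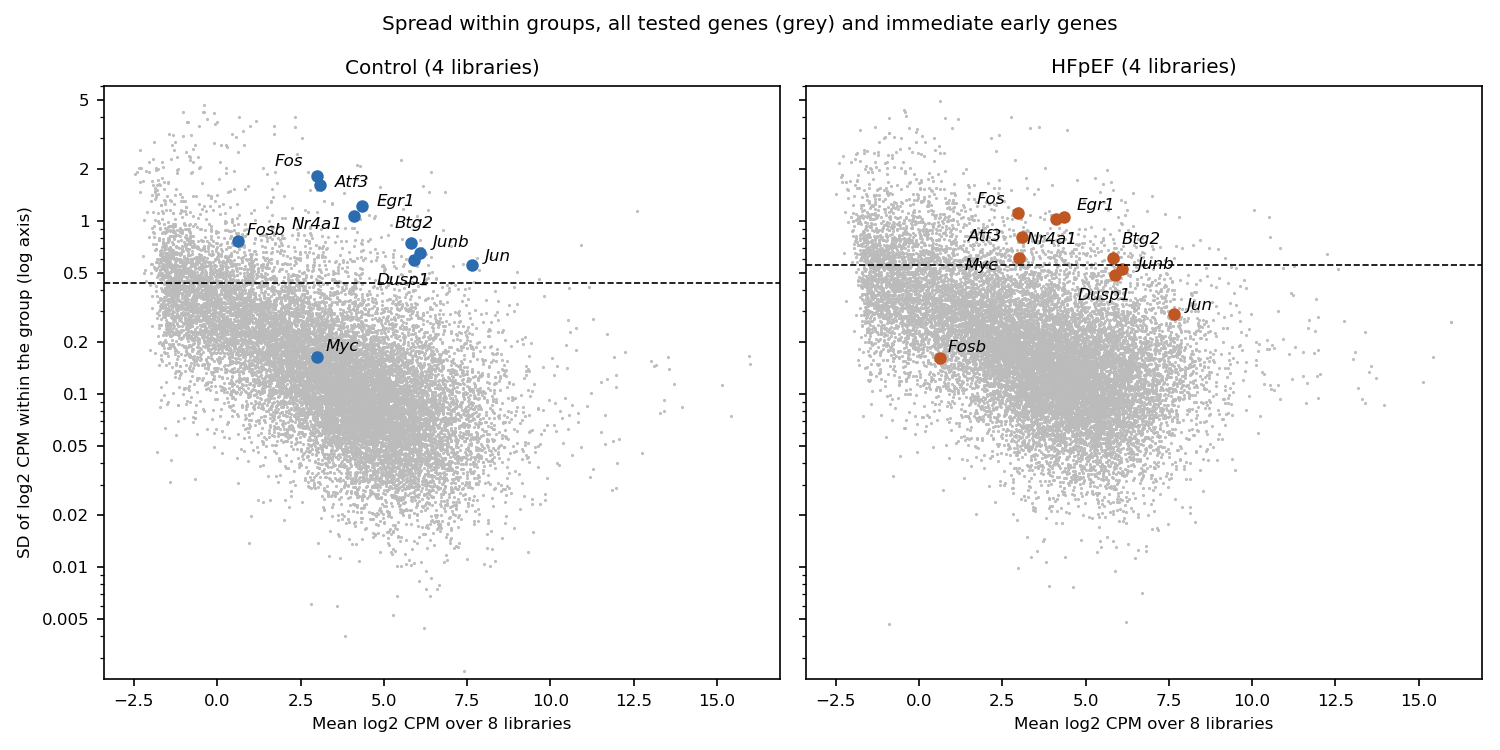
SD of log2 CPM among the 4 libraries of a group (log axis) against the mean log2 CPM over all 8 libraries, for all 16313 tested genes (grey) and the 10 members (coloured, named). The dashed line is the 90th percentile of all genes: 9 members lie above it in Control, all but Myc, and 6 in HFpEF.

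Leaving out Control replicate 3 turned the direction of 6 members. It was singled out for its high member values and was the highest Control library in 9 of 10 members. A shift of those members upward was thus fixed by the choice and is no test. Without Control replicate 3, 8 members had a higher fitted level in HFpEF and 2, Fosb and Dusp1, a lower one. This was the reverse of the 2 higher and 8 lower with all libraries, and the median log2 fold change of the members became 0.42. The value for Fos went from -0.94 to 0.88 and that for Egr1 from -0.18 to 0.81. Jun, Atf3, Nr4a1 and Btg2 also turned from negative to positive. None was called (0 of 10 by edgeR, where 0.145% of genes were called). Of the 10 members 2, Junb and Myc, had an unadjusted edgeR p under 0.05, as did 15.3% of genes, a share near the members' own. Without HFpEF replicate 2, the highest HFpEF library in 9 of 10 members, the median moved the other way, to -0.62. With Control replicate 3 and HFpEF replicate 2 both left out, a choice made after seeing the data, 6 members lay higher and 4 lower with a median of 0.14. The values then ran from -0.32 (Nr4a1) to 0.70 (Myc), and 0 of 10 were called (0.159% of genes), with Junb and Myc again under 0.05 before adjustment (12.7% of genes). For 8 members, all but Junb and Myc, the interval included 0 in each of these fits.

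**Figure D4:**
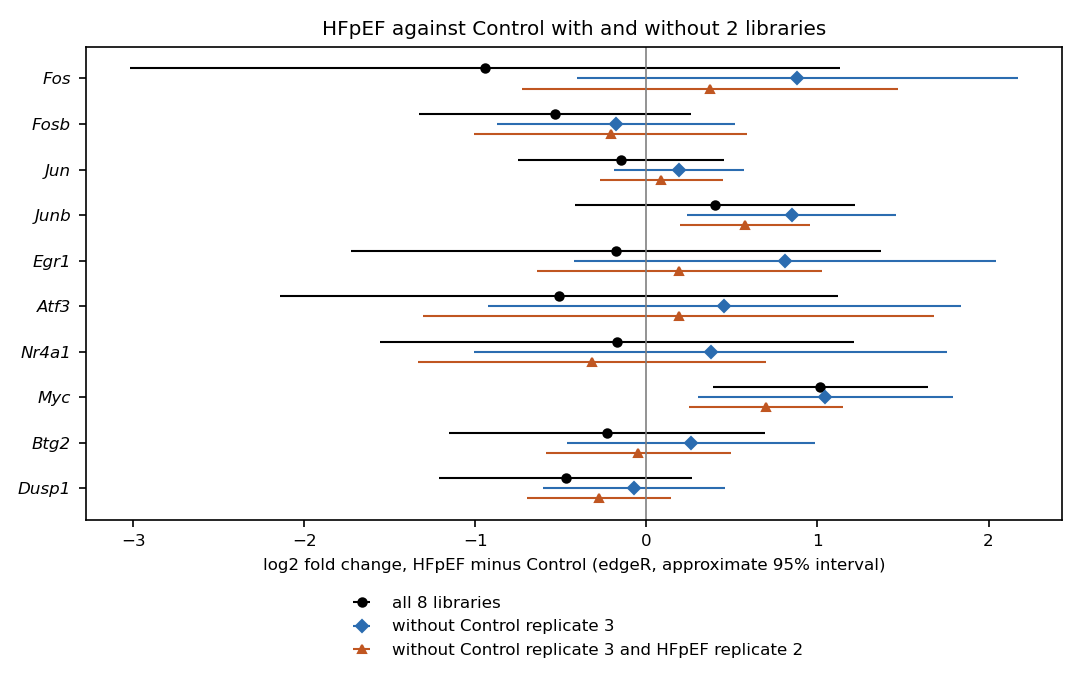
Log2 fold change (HFpEF minus Control) of each gene with its approximate 95% interval from edgeR, with all 8 libraries (black circles), without Control replicate 3 (blue diamonds) and without it and HFpEF replicate 2 (orange triangles). Fos moves from -0.94 to 0.88 without Control replicate 3, while Myc stays between 0.70 and 1.04 in the 3 fits.

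Levels of the other members were set against that of Fos over the 8 libraries, as 9 relations in log2 CPM tested by exact two-sided permutation with Benjamini-Hochberg adjustment. The libraries share their scaling, and 4 libraries are too few for a correlation within a diet. Egr1 ranked the 8 libraries in the same order as Fos, with r = 0.976 (exact permutation p = 2.48e-05, the smallest these orderings give, adjusted p = 0.000223) and rho = 1.00. Nr4a1 followed with r = 0.871 and rho = 0.976 (exact permutation p for r = 0.00248, adjusted 0.00564), and Dusp1 with r = 0.921 and rho = 0.881 (exact permutation p for r = 0.00161, adjusted 0.00564). Over all 9, r passed the adjusted threshold in 8 and rho in 3 (Egr1, Nr4a1 and Dusp1). Myc did not pass, with r = 0.211 and rho = 0.214 (exact permutation p for r = 0.598, adjusted 0.598).

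By r, most of these relations no longer passed without Control replicate 3 and HFpEF replicate 2, which lie farthest from the median of Fos. Leaving them out also narrows the range of Fos. Over the other 6 libraries r for Egr1 was 0.988 (exact permutation p = 0.00139, adjusted p = 0.0125), and it alone passed. The r for Nr4a1 was 0.672 (exact permutation p = 0.135, adjusted 0.438) and that for Dusp1 was 0.611 (exact permutation p = 0.226, adjusted 0.438). For Jun it went from 0.908 to 0.488, for Btg2 from 0.906 to 0.514, for Junb from 0.833 to 0.597, for Fosb from 0.779 to 0.541 and for Atf3 from 0.711 to 0.0807. By rank the change was smaller for some: rho over the 6 libraries was 1.00 for Egr1, 0.943 for Nr4a1, 0.771 for Fosb and 0.714 for Dusp1, against 0.429 for Jun and Btg2 and 0.257 for Junb and Atf3. Among these rho, that of Egr1 alone passed after adjustment (exact permutation p = 0.00278, adjusted 0.025), and that of Nr4a1 did not (exact permutation p = 0.0167, adjusted 0.075). Fos and Egr1 ranked also the lower libraries alike, with HFpEF replicate 3 and Control replicate 2 lowest and HFpEF replicate 4 next below the high pair.

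**Figure D5:**
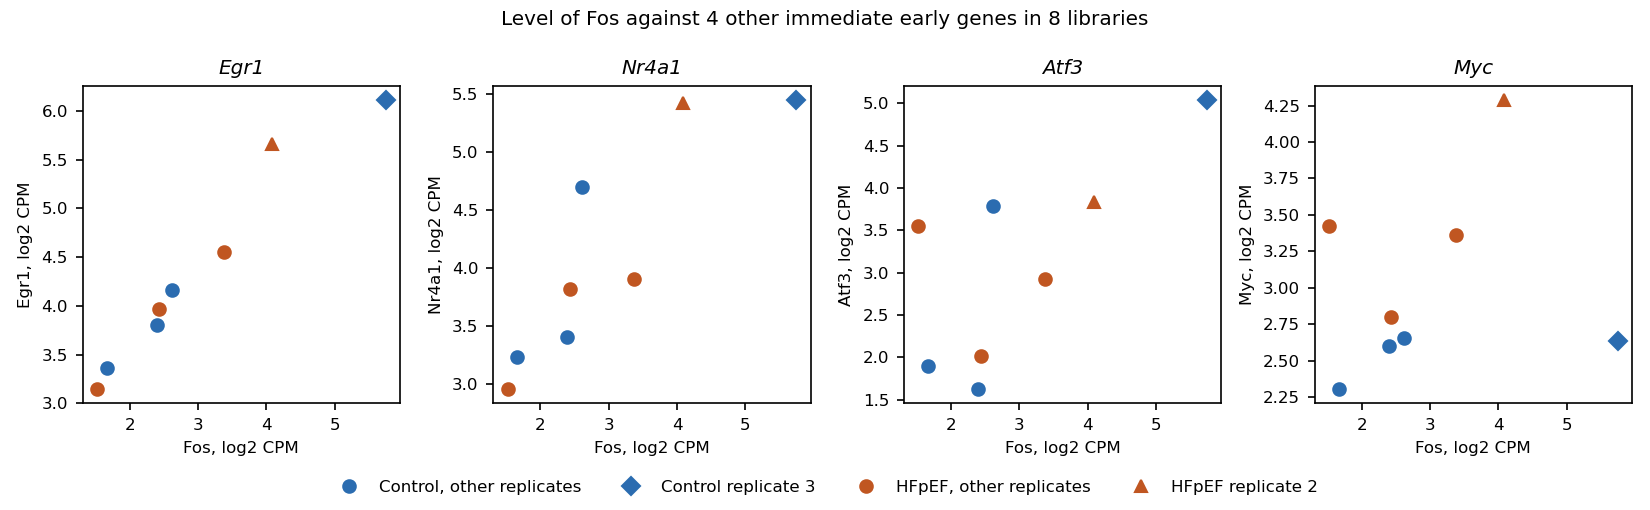
Log2 CPM of Egr1, Nr4a1, Atf3 and Myc (vertical axes) against that of Fos (horizontal axes) in the 8 libraries, blue for Control and orange for HFpEF. Egr1 climbs with Fos through all 8 points (r = 0.976), while for Myc (r = 0.211) the library with the most Fos, Control replicate 3 (diamond), lies among the other Control libraries.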

How the data were processed

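The authors deposited 1 table of expected counts per Ensembl gene, with no normalization. Bowtie2 2.1.0, RSEM 1.2.15 and the rn6 build are named per the submitters' processing notes. The annotation, the filters and whether strand was used are not stated, so reads of overlapping or antisense genes may not have been told apart. Per the labels' protocols, ribosomal RNA was depleted from total RNA before library construction. Each of the 8 columns matched 1 library's title.

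Expected counts were rounded. Genes were kept by edgeR's filterByExpr (16313 genes with 99.95% of the counts), scaled by TMM and tested two-sided for HFpEF against Control by quasi-likelihood in edgeR 4.0.16 (under R 4.3.3). Genes are called at a Benjamini-Hochberg adjusted p under 0.05 over all genes. Intervals of log2 fold changes come from the F statistic and are approximate. Log2 CPM used a prior count of 2. Counts within 0.005 of a whole number were taken as whole. Poisson intervals cover counting error only. The fit and the correlation test were tested on simulated data.

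Other settings were a threshold of 0.1, a prior count of 0.5, a block on the replicate number, robust = TRUE, a looser and a stricter filter, scaling by RLE or upper quartile, the tools limma-voom (version 3.58.1) and DESeq2 (1.42.0), and libraries left out. The members and lists were chosen with earlier results of these data known. The rule for named genes was all 10 members. The gene names come with that choice of identifiers: the RefSeq table held 0 Ensembl identifiers in 47357 rows, so the lists of other immediate early genes and of cell type markers were not used.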

Additional observations from a re-analysis of the deposited data

Results flagged for a closer look

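Of 20 sets of 4 values (10 genes in 2 groups), 5 held a library whose gap to the nearest other library took up most of the range of its group by Dixon's test at 95%. Chance flags about 1 in 20 such sets, and the genes share libraries, so the 5 are not separate events. In 4 of them the library was Control replicate 3, the highest of its group: Fos at 53.5, Junb at 114, Egr1 at 68.9 and Dusp1 at 128 normalised CPM. On the log2 scale 2 of these 4, Junb and Dusp1, still stood apart. Over all 16313 tested genes Control replicate 3 stood apart in this way, as the highest, in 0.717%. That share describes a library singled out for its high members and is no test. The 5th was Myc in Control replicate 2, the lowest of its group at 4.89 CPM against 6.01 to 6.24 in the other 3. No HFpEF library stood apart for any member by this test, which with 4 values finds only extreme cases.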

How the results depend on the processing

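Of the 10 members 0 were called by edgeR, and 1, Myc, was called by DESeq2, at a threshold of 0.1 and without HFpEF replicate 1, so that leaving out 1 library gave 0 to 1 members, all higher. Over all genes the 316 calls (251 higher, 65 lower) went to 1248 with DESeq2 (856 higher, 392 lower). At a threshold of 0.1 they were 943 (668 higher, 275 lower), and with limma-voom 223 (186 higher, 37 lower). They ran from 22 to 332 (21 to 234 higher, 0 to 98 lower) with 1 library left out, and were 26 (26 higher, 0 lower) without Control replicate 3 and HFpEF replicate 2. A block on the replicate number left edgeR with 6 called genes (6 higher, 0 lower), with 15.7% of genes at an unadjusted p under 0.05, and 0 members. No pairing of libraries was read from these numbers, since deviations of same-numbered libraries correlated at -0.022, -0.056, 0.068 and -0.16.

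Under the block Egr1 had a log2 fold change of 0.07, Fos went from -0.94 to -0.0018 and Atf3 from -0.51 to -0.078. With limma-voom Fos was at -0.28, Atf3 at -0.038 and Egr1 at -0.042. With 1 library left out the log2 fold change ran from -1.45 to 0.88 for Fos, -0.28 to 0.19 for Jun, -0.79 to 0.81 for Egr1, -0.84 to 0.46 for Atf3, -0.87 to 0.38 for Nr4a1 and -0.53 to 0.26 for Btg2. The positive ends came without Control replicate 3. Without HFpEF replicate 3 Egr1 was at 0.10 and Nr4a1 at 0.09. Without both Control replicate 3 and HFpEF replicate 2 the values were 0.37 for Fos, 0.09 for Jun, 0.19 for Egr1 and 0.19 for Atf3. Fosb, Junb, Myc and Dusp1 kept their direction under every setting run, but not their size: with 1 library left out Fosb ran from -0.76 to -0.18, Junb from 0.13 to 0.85 and Dusp1 from -0.67 to -0.074, the weakest values of Fosb and Dusp1 coming without Control replicate 3 and that of Junb without HFpEF replicate 2.

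The number of members with a higher SD in Control ran from 2 to 9 with 1 library left out and was 3 without both. The number over the 90th percentile of SD in Control ran from 4 to 9 and was 4 without both, and that in HFpEF ran from 4 to 8. By r, relations with Fos past the threshold went from 8 to 1 with fewer libraries in the test. A prior count of 0.5 and RLE scaling changed neither the spread counts nor the number of relations. With 34 to 119 counts per library, Fosb was the member whose differences depth limits most.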
